A study of Rattus norvegicus with 2 samples.

Results

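Rab GTPases are small membrane-bound proteins, and each marks particular compartments of the endocytic and secretory routes. All probe sets of the array whose gene symbol is Rab followed by a number and at most 1 letter were taken as members, which gave 84 probe sets of 52 genes among 31038 probe sets and 13510 genes with a symbol. The file's gene title named a RAB protein for all 84. By textbook role, 21 of the genes were placed in an endosomal class (early, recycling and late endosomes and endocytosis), 23 in a secretory class (endoplasmic reticulum, Golgi and exocytosis) and 8 in a class of other Rabs. Messenger RNA was measured with Affymetrix Rat Genome 230 2.0 arrays in primary hepatocytes, the parenchymal cells of the liver, from livers of male SD (Sprague-Dawley) rats. The treated culture received triiodothyronine (T3), the form of thyroid hormone that binds its nuclear receptors, for 24 h at 1 nM, and the control culture, by its label and the series' design text, was kept without it. Both grew on collagen in 6-well plates in a basal medium for hepatocytes with growth factors, and the labels do not give how many rats supplied the cells, their age, or whether both cultures came from the same isolation. There was 1 T3 array and 1 control array, so no difference below has a replicate check, a test or a p-value. With 2 arrays, the precision of each value is limited by their number.

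A Rab protein switches between a GDP-bound form held in the cytosol by GDP dissociation inhibitors and a GTP-bound form on a membrane, where it recruits effectors such as tethers, motors and lipid kinases. Exchange factors load GTP, GTPase-activating proteins end the active state, and a prenyl group added by Rab geranylgeranyl transferase anchors the protein. In hepatocytes, Rab-directed traffic carries receptors and their ligands into endosomes and lysosomes, carries bile transporters to the canalicular membrane and brings plasma proteins and lipoproteins through the Golgi. Thyroid hormone receptors are nuclear receptors that bind DNA elements built from the hexamer AGGTCA.

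Rab5c, Rab5a and Rab5b encode closely related GTPases of the early endosome, and their promoters are shown because the Rab5c signal was over 1.5-fold lower with T3 while those of its paralogues were not. The sequences are from RefSeq on build GRCr8 and run 5′ to 3′ on the gene's strand, with 250 bases before and 50 bases after the annotated start. Rab5c lies at chr10:86166400-86166699 on the minus strand, Rab5a at chr9:6720877-6721176 on the plus strand and Rab5b at chr7:1712687-1712986 on the minus strand. Capitals mark a match to AGGTCA or to its reverse complement TGACCT.
Rab5c: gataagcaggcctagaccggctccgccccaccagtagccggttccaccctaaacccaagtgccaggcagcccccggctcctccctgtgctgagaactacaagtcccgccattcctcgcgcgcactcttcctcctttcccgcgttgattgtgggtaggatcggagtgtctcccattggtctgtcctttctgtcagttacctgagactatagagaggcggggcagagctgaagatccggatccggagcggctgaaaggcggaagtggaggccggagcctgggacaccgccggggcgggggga
Rab5a: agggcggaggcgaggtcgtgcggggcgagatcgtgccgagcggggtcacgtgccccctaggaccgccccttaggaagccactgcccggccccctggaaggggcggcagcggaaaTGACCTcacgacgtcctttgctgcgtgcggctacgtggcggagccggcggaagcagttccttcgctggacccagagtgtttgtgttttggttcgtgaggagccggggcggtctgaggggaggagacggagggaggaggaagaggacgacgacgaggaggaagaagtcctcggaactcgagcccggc
Rab5b: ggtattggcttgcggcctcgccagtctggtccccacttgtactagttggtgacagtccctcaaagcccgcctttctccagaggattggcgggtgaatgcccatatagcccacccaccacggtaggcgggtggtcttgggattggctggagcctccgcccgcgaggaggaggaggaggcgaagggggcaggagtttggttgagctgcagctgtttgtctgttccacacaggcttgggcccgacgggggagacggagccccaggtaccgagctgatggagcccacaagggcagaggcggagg
The Rab5a window holds 1 match, which begins 136 bases before the start, and the Rab5c and Rab5b windows hold none.

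Promoter entries were found for 43 of the 52 Rab genes, 44 entries in all because Rab30 has 2. The hexamer was searched on both strands. It stood in 5 of the 44 Rab entries (11.4%), against 5415 of 33469 entries of all genes (16.2%). A direct repeat of AGGTCA with a spacer of 4 bases, the arrangement best known for thyroid hormone receptors, was in 0 Rab entries and in 2 of all entries. Besides Rab5a, the entries with a match belonged to Rab30, a Golgi Rab, to Rab32, a Rab of mitochondria and lysosome-related organelles, to Rab33b, a Golgi Rab with a role in autophagy, and to Rab3c, a Rab of regulated exocytosis. The matches are shown with 20 bases on each side, capitals marking the hexamer, at chr1:156288755-156288800 (plus strand) for Rab30, chr1:6781330-6781375 (minus strand) for Rab32, chr2:137678776-137678821 (plus strand) for Rab33b and chr2:43576021-43576066 (minus strand) for Rab3c.
Rab30: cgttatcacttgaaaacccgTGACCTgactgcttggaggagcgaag
Rab32: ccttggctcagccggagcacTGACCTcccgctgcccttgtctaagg
Rab33b: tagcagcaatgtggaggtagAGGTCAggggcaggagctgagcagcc
Rab3c: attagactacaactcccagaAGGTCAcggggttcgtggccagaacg
The median GC content was 64% in the Rab entries and 51.7% in all entries. A match is only a run of letters in this window.

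On both arrays the signals had been scaled to a trimmed mean of 100.04. The T3 array called 17264 probe sets present (55.6%) and the control array 17592 (56.7%). A present call means that the perfect-match probes of a set were brighter on that array than the paired mismatch probes, and a gene was taken as detected where at least 1 array called it present. Hepatocyte markers were bright, with albumin at 3449 with T3 against 3972 in control, and 7 of the 8 listed were detected, transferrin having no probe set here. Markers of other liver cells were also present, among them the bile duct keratin Krt19 at 1079 with T3 against 1240.0 in control and vimentin, a marker of stellate cells, at 1418 with T3 against 1621 in control. In all, 3 of 4 bile duct markers, 5 of 5 stellate cell or fibroblast markers, 1 of 5 leukocyte markers and 1 of 4 endothelial markers were detected. Ptprc, Cd68, Clec4f, Cd3e, Pecam1 and Kdr, which define leukocytes and endothelial cells, were not called present on either array. The summed signal of detected bile duct markers was 2457 with T3 against 2805 in control, and that of stellate cell markers 1614 with T3 against 1793 in control, of which vimentin makes up most. The other stellate cell markers went both ways. Acta2, at 124 with T3 against 102 in control, and Des, at 56.6 with T3 against 46.4 in control, were higher. At low signal, Lrat had 7.32 with T3 against 13.8 in control, and Col1a1 had 8.01 with T3 against 9.02, not called present, in control. The detected leukocyte marker Cd163 had 7.64 with T3 against 4.79 in control, and the endothelial marker Egfl7 had 47.8 with T3 against 31.0 in control. The part of other cells in the Rab values was not tested. Such bulk samples do not tell which cells carried these marker RNAs, and in them fewer cells of a type and less RNA per cell cannot be told apart.

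Rab genes were detected more often than genes at large, at 44 of 52 (84.6%) against 9670 of 13510 genes (71.6%). For 41 of the 44, the probe set used was present on both arrays. Each gene is represented by its detected probe set of highest signal, taken as the arithmetic mean of both arrays. Mean signals used elsewhere are geometric means. The 8 Rab genes that were not detected were Rab25, Rab33a, Rab36, Rab39, Rab3b, Rab3c, Rab6b and Rab9b. Several of these are best known from other tissues, as Rab3b, Rab3c and Rab6b are from neurons and Rab25 from epithelia.

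Among the 44 detected Rab genes, 0 were at least 1.5-fold higher with T3 and 2 were at least 1.5-fold lower, Rab5c and Rab27b. The same rule called 2.81% of 9670 detected genes higher and 1.68% lower. With the larger signal at least 25% above the smaller, 1 Rab gene was higher (Rab26) and 3 were lower (Rab5c, Rab27b and Rab40b), against 7.77% of all genes higher and 5.48% lower. At 2-fold, 0 were higher and 1 was lower (Rab27b), against 0.91% higher and 0.527% lower. These are counts of few genes beside the shares of all genes, and most Rab genes differed little between the arrays. Counted by probe set, 1 Rab probe set was at least 1.5-fold higher and 2 were lower among the 73 that were detected, against 4.11% and 2.65% of all 18332 detected probe sets. The authors' deposited tables of changed probe sets hold these same 3, Rab33b with a ratio of 2.20, Rab27b with 0.482 and Rab5c with 0.551.

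**Figure D1:**
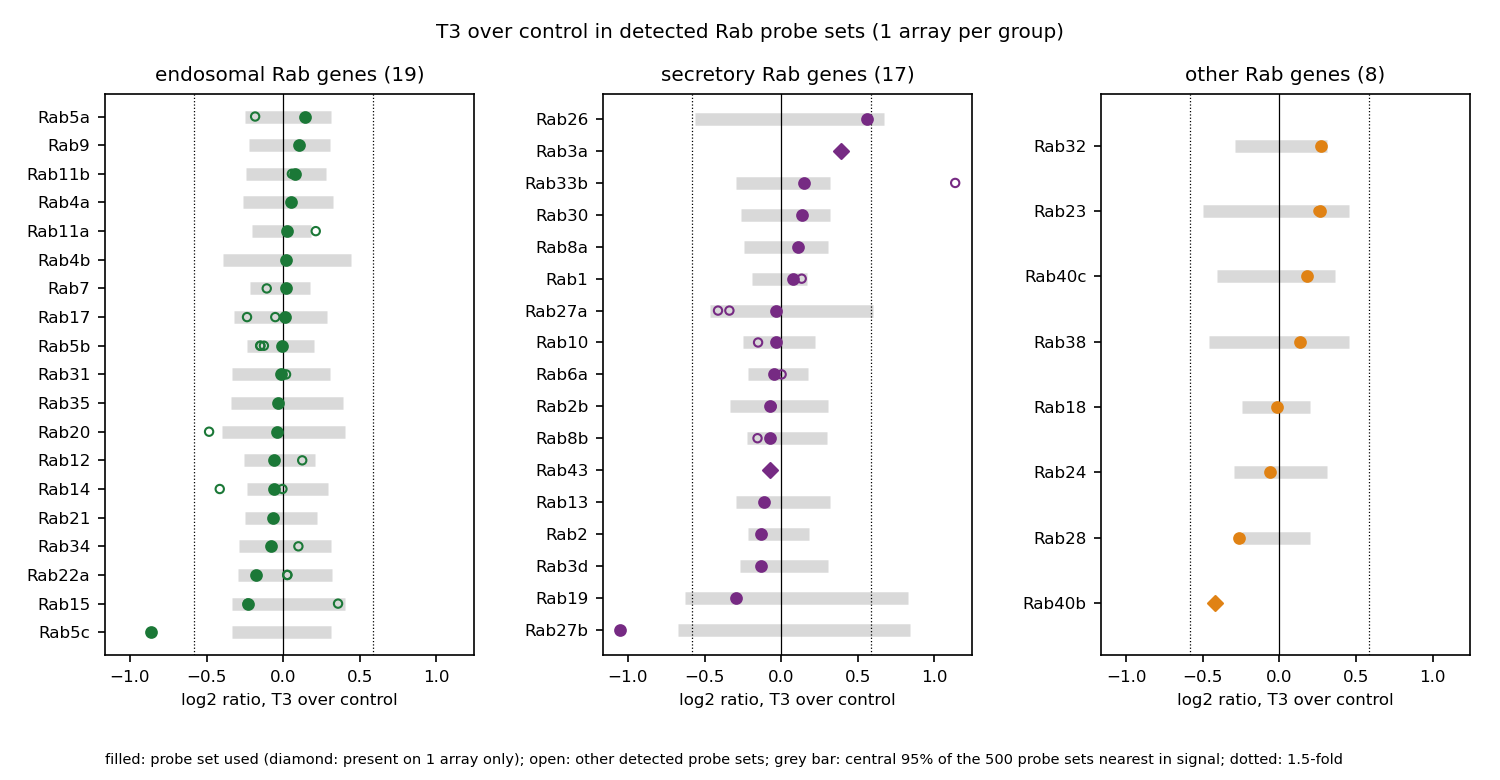
Each detected Rab gene's log2 ratio of T3 signal over control signal (horizontal axis, log2 scale), by class; filled points are the probe set used, open points other detected probe sets, diamonds probe sets present on 1 array only, grey bars the central 95% of the 500 probe sets nearest in signal, and dotted lines 1.5-fold. Rab5c at -0.86 and Rab27b at -1.05 lie below their grey bars and past 1.5-fold, and the filled points of the other genes lie between the dotted lines.

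The median log2 ratio of T3 over control was -0.03 over the 44 Rab genes and 0.00 over all detected genes. It was -0.01 over 19 endosomal genes, -0.05 over 17 secretory genes and 0.06 over 8 others. Below 0 lay 26 of the 44 Rab genes (59.1%) and 49.9% of all genes. The ratios ran between 0.551 and 1.10 in the endosomal class, between 0.482 and 1.48 in the secretory class and between 0.749 and 1.21 among the others. Without Rab5c the endosomal class ran between 0.854 and 1.10, inside the ranges of both other classes. This depended on dim genes. With a mean signal of at least 100, secretory genes ran between 0.912 and 1.11 and the others between 0.834 and 1.21. The endosomal range without Rab5c stayed between 0.854 and 1.10, and so was no longer inside the secretory one. The median of the 8 others was 0.14 when only genes present on both arrays were counted and -0.02 over those with a mean signal of at least 100. By the file's own component terms, the median was 0.02 over 9 Rab genes annotated to endosomes and -0.04 over 16 annotated to the Golgi. These sets overlap, since Rab7, Rab9, Rab11a, Rab14, Rab21 and Rab34 are in both, and neither holds Rab5c.

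In place of a replicate error, each ratio was set beside the 500 probe sets nearest in signal and present on both arrays, a spread that holds technical and biological differences together. Of the 41 Rab genes present on both arrays, 3 (7.32%) lay below the central 95% of their neighbours and 0 above it, where 5% of all probe sets lie outside by construction. These were Rab5c, Rab27b and Rab28. Counted by probe set, as the 5% is, 4 of 70 Rab probe sets (5.71%) lay below and 0 above, with a Rab20 probe set added. Among 34 Rab genes with a mean signal of at least 100, where ratios scatter least, 33 (97.1%) had signals under 25% apart and 26 (76.5%) under 10% apart, against 96.2% and 73.0% of 5840 such genes. In this bright set 1 Rab gene, Rab5c, was at least 1.5-fold lower and 0 were higher, against 0.154% and 0.291% of all bright genes.

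**Figure D2:**
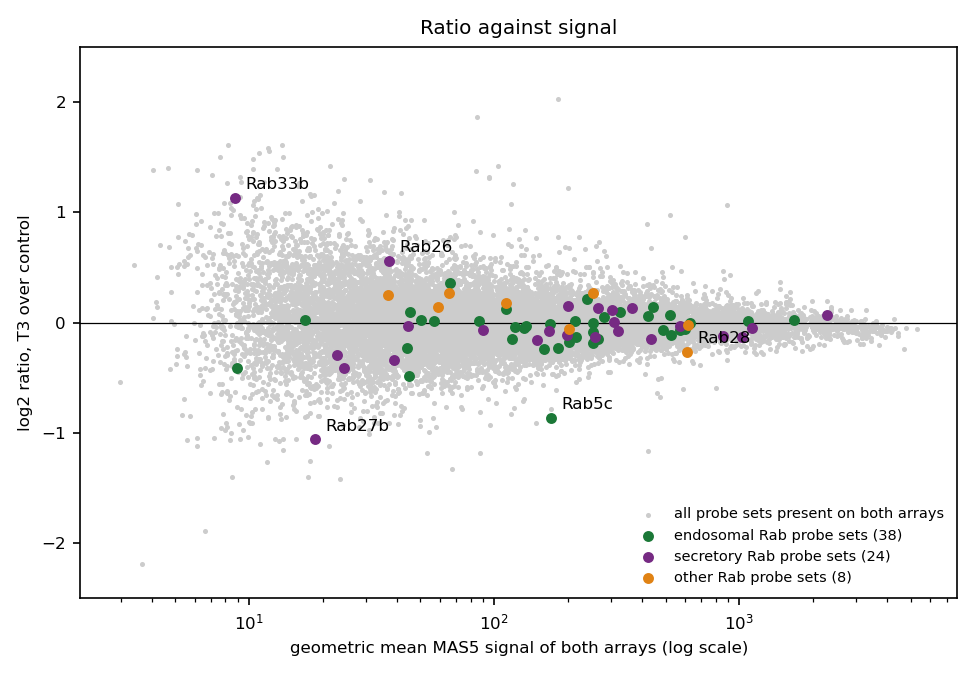
Log2 ratio of T3 over control (vertical axis) against the geometric mean signal of both arrays (horizontal axis, log scale) for all 16524 probe sets present on both arrays in grey and the 70 Rab probe sets in colour by class. Ratios spread more widely at low signal, where Rab27b, Rab26 and the dimmer Rab33b probe set lie, while Rab5c lies at the lower edge of the grey points around its own signal.

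Rab5c, which with Rab5a and Rab5b directs fusion of early endosomes and uptake of receptors, was the bright Rab gene past 1.5-fold. Its signal was 127 with T3 against 230.3 in control, a ratio of 0.551 and a log2 ratio of -0.86. This ratio was below those of all 500 neighbours, whose central 95% ran between 0.794 and 1.24. Rab5c is read by a single probe set on this array, so no other probe set of the gene could be set beside it. Rab5a did not share the difference, with 468 with T3 against 424 in control in its brighter probe set (1.10) and 236 with T3 against 268 in control in the other (0.881). Rab5b had 626 with T3 against 629 in control in its brightest probe set (0.997). The other Rab5b probe sets had 251 with T3 against 278 in control (0.901), 205 with T3 against 224 in control (0.916) and 112 with T3 against 124 in control (0.902). The 6 probe sets of Rab5a and Rab5b thus ran between 0.881 and 1.10, and all lay above Rab5c. The log2 ratio of Rab5c was -0.93 relative to the mean of Rab5a and Rab5b. That difference was -0.78 when each gene took the median of its probe sets and -0.68 with a pseudocount of 64.

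**Figure D3:**
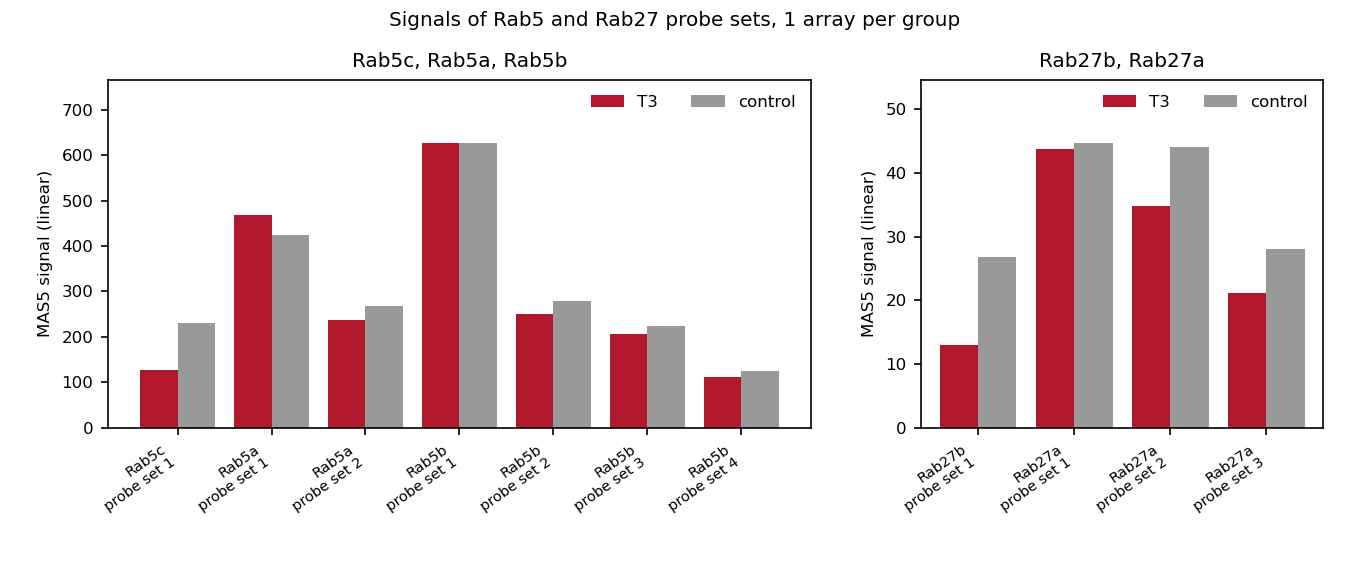
Signals (vertical axis, linear) with T3 (red) and in control (grey) for each probe set of Rab5c, Rab5a and Rab5b and of Rab27b and Rab27a; each bar is 1 array, so there are no error bars. Rab5c stands at 127 with T3 against 230.3 in control while all 6 probe sets of Rab5a and Rab5b have bars of similar height, and Rab27b stands at 12.9 with T3 against 26.8 in control.

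Most of the remaining endosomal Rabs lay close to equal in the probe sets used. Rab4a and Rab4b, which direct fast recycling, had 286 with T3 against 276 in control (1.04) and 87.2 with T3 against 86.1 in control (1.01). Rab11a, of the recycling endosome and the route to the bile canaliculus, had 1686 with T3 against 1660.4 in control (1.02), and 1.16 in its dimmer probe set. Rab11b, its close paralogue, had 536 with T3 against 509 in control (1.05). Rab25, the epithelial member of that set, was not detected, at 10.3 with T3 against 1.61 in control. Rab7, listed under the older symbol of Rab7a and needed for fusion of late endosomes with lysosomes, had 1091 with T3 against 1079 in control (1.01). Its dimmer probe set had a ratio of 0.928. Rab9, the older symbol of Rab9a, returns mannose 6-phosphate receptors from late endosomes to the Golgi and had 336 with T3 against 313 in control (1.07). Its paralogue Rab9b was not detected, at 7.72 with T3 against 3.62 in control.

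Rab22a, of early endosomes, had 189 with T3 against 214 in control (0.885), and its paralogue Rab31 had 168 with T3 against 169.6 in control (0.990). The dimmer probe sets of Rab22a had log2 ratios of up to 0.03, on the other side of 0. Rab15, which acts at early and recycling endosomes, had 168 with T3 against 197 in control (0.854), the lowest ratio of the class after Rab5c. A second Rab15 probe set was also lower, with 40.7 with T3 against 47.8 in control (0.852), while another was higher, with 74.9 with T3 against 58.5 in control (1.28). The ratios of Rab12, Rab14, Rab17, Rab20, Rab21, Rab34 and Rab35 lay between 0.946 (Rab34) and 1.01 (Rab17) in the probe sets used. Dimmer probe sets of these genes ran more widely, between 0.715 (Rab20) and 1.09 (Rab12). Rab17 is a Rab of polarised epithelia that acts in transcytosis, and Rab21 directs endocytosis of integrins. The dimmer Rab20 probe set had 38.1 with T3 against 53.2 in control (0.715) and lay below the central 95% of its neighbours, while the brighter one had 119.6 with T3 against 123 in control (0.972).

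Of the early secretory Rabs, Rab1 (now Rab1a), which directs traffic between the endoplasmic reticulum and the Golgi, had the brightest probe set of the family, at 2342 with T3 against 2225 in control (1.05). Rab2 (now Rab2a), of the same step, had 976 with T3 against 1069 in control (0.913), and Rab2b had 162 with T3 against 171 in control (0.951). Rab6a, which acts in retrograde traffic within the Golgi, had 1112 with T3 against 1150.1 in control (0.967). Its neuronal paralogue Rab6b was not detected, at 3.23 and 1.45 with T3 against 1.16 and 3.75 in control in its probe sets. Rab8a and Rab8b, of traffic between the Golgi and the plasma membrane and of cilia, lay on either side of equal, at 315 with T3 against 291 in control (1.08) and 312 with T3 against 329 in control (0.950). Rab10, a Rab of exocytosis and basolateral sorting, had a ratio of 0.978, Rab13, of tight junctions, 0.924, and Rab30, of the Golgi, 1.10.

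Rab33b, which acts at the Golgi and in autophagosome formation, was read by probe sets that differed in size of change. The brighter one had 209.7 with T3 against 189 in control (1.11), and the dim one had 13.0 with T3 against 5.92 in control (2.20), at the upper edge of the central 95% of its neighbours (0.524 to 2.20). The gene is therefore not among the genes called here, although its dim probe set is in the authors' deposited tables. Its paralogue Rab33a was not detected, at 33.9 with T3 against 35.2 in control.

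Among Rabs of regulated exocytosis, Rab27b had 12.9 with T3 against 26.8 in control, a ratio of 0.482 and a log2 ratio of -1.05. Of its 500 neighbours, 2 had a lower ratio, and their central 95% ran between 0.627 and 1.79. Rab27b is read by 1 probe set of low signal, and with a pseudocount of 16 it no longer passed 1.5-fold. Rab27a, which with Rab27b directs docking of secretory granules and release of exosomes, had 43.8 with T3 against 44.8 in control (0.979) in its brightest probe set. Its dimmer probe sets had 34.8 with T3 against 44.0 in control (0.791) and 21.1 with T3 against 28.1 in control (0.751). All 3 lay below equal, and none reached 1.5-fold.

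Rab26, a Rab of secretory granule maturation, was the highest of the probe sets used, at 45.2 with T3 against 30.6 in control, a ratio of 1.48 that fell just short of 1.5-fold. Of its neighbours, 95.2% had a lower ratio, so it lay within their central 95%. Rab3d, the Rab3 member of non-neuronal granules, had 246 with T3 against 269 in control (0.912). Rab3a, the Rab of synaptic vesicles, was called present in control only, at 11.8 (marginal) with T3 against 8.97 in control, and Rab3b and Rab3c were not detected, at 18.8 with T3 against 24.2 in control and at 0.366 with T3 against 1.31 in control. Rab19 had a ratio of 0.814 at low signal. Rab43, called present in control only, had 30.0 with T3 against 31.7 in control (0.949).

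Of the other Rabs, Rab28, which is linked to cilia, had 558 with T3 against 669 in control, a ratio of 0.834. The difference is under 25%, but 2% of its bright neighbours had a lower ratio. Rab32, which acts at mitochondria and lysosome-related organelles, had 277 with T3 against 229.6 in control (1.21), within the central 95%, with 96.2% of neighbours lower. Its paralogue Rab38 had 61.7 with T3 against 56.0 in control (1.10). Rab23, an inhibitor of Hedgehog signalling, was higher to a like extent in both of its probe sets, at 72.0 with T3 against 59.8 in control (1.20) and 40.4 with T3 against 33.8 in control (1.19). Both were under 25%. Rab18, of lipid droplets, had a ratio of 0.989, and Rab24, of autophagy, 0.959. Rab40c, a Rab with a SOCS box that joins a ubiquitin ligase, had 118 with T3 against 104.5 in control (1.13). Its paralogue Rab40b was called present in control only, at 7.37 with T3 against 9.84 in control (0.749), both low signals.

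Of 13 paralogue sets with at least 2 genes on the array, 8 had at least 2 genes present on both arrays. Within a set, the log2 ratios of the paralogues spanned 1.0 for Rab5 and 1.02 for Rab27. The spans of the others were 0.19 for Rab8, 0.16 for Rab22a and Rab31, 0.13 for Rab32 and Rab38, 0.06 for Rab2, 0.05 for Rab11 and 0.03 for Rab4. The wide spans came from 1 member each, Rab5c and Rab27b. For scale, probe sets of 1 Rab gene also disagreed: of 22 Rab genes with at least 2 probe sets present on both arrays, 13 had all of them on 1 side of equal (59.1%), against 51.7% of 2270 genes. The median range of log2 ratio between probe sets of a gene was 0.16 for Rab genes and 0.20 for all genes, and the largest Rab value was 0.99, for Rab33b. The spans of Rab5 and Rab27 also depend on the settings. With the median of each gene's probe sets, Rab5a was at -0.02 and Rab27a at -0.34, closer to Rab5c and Rab27b. With a pseudocount of 64, Rab27b was at -0.24 and Rab27a at -0.01.

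Of the Rab genes whose promoter entry holds the hexamer, 4 were detected, and their log2 ratios were 0.14 for Rab5a, 0.13 for Rab30, 0.27 for Rab32 and 0.15 for Rab33b. Their median was 0.14, against -0.03 over 33 detected Rab genes whose entries hold none. The same split was not made over all genes, the other entry of Rab30 holds no match, and a link to the hexamer was not tested. All 4 lay within the central 95% of their neighbours and differed by under 25%, and the second Rab5a probe set was on the other side of equal.

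Regulators and effectors of Rab proteins also differed little between the arrays. Of 156 listed genes, 133 had a probe set and 118 were detected, of which 0 were at least 1.5-fold higher with T3 and 1 was at least 1.5-fold lower, against 2.81% and 1.68% of all genes. That gene was Tbc1d10c, which encodes a GTPase-activating protein and had 1.56, not called present, with T3 against 6.51 in control. At so low a signal the size of the fold cannot be told. Tbc1d8, of the same list, had 9.66, not called present, with T3 against 5.02 in control (1.92). It was not counted as higher because the brighter array did not call it present. The median log2 ratio of the 118 was -0.02, with 53 above 0 and 65 below. By list, the median was -0.02 for 8 genes of prenylation, escort and recycling of Rab proteins, 0.00 for 30 exchange factors and -0.07 for 23 GTPase-activating proteins. It was -0.08 for 23 early endosome effectors and partners, 0.13 for 9 late endosome and lysosome effectors, -0.15 for 9 recycling effectors and 0.02 for 16 Golgi and secretion effectors. Above 0 lay 7 of the 9 late endosome effectors and 2 of the 9 recycling effectors, and none of either list passed 1.5-fold.

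Among regulators and effectors present on both arrays with a mean signal of at least 100, the highest ratios were those of Inpp5b, Hgs and Trappc10. Inpp5b, an inositol polyphosphate phosphatase that binds Rab5, had 193.6 with T3 against 135.6 in control (1.43). Hgs, the ESCRT subunit that sorts ubiquitinated receptors on early endosomes, had 547 with T3 against 426 in control (1.28). Trappc10, a subunit of the TRAPP complexes that load GTP on Golgi Rabs, had 175 with T3 against 138 in control (1.27). The lowest were exchange factors. Rin3, which acts on Rab5 proteins, had 95.9 with T3 against 127 in control (0.755). Dennd2a had 103 with T3 against 129 in control (0.799), and Dennd6a had 137 with T3 against 168 in control (0.815).

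**Figure D4:**
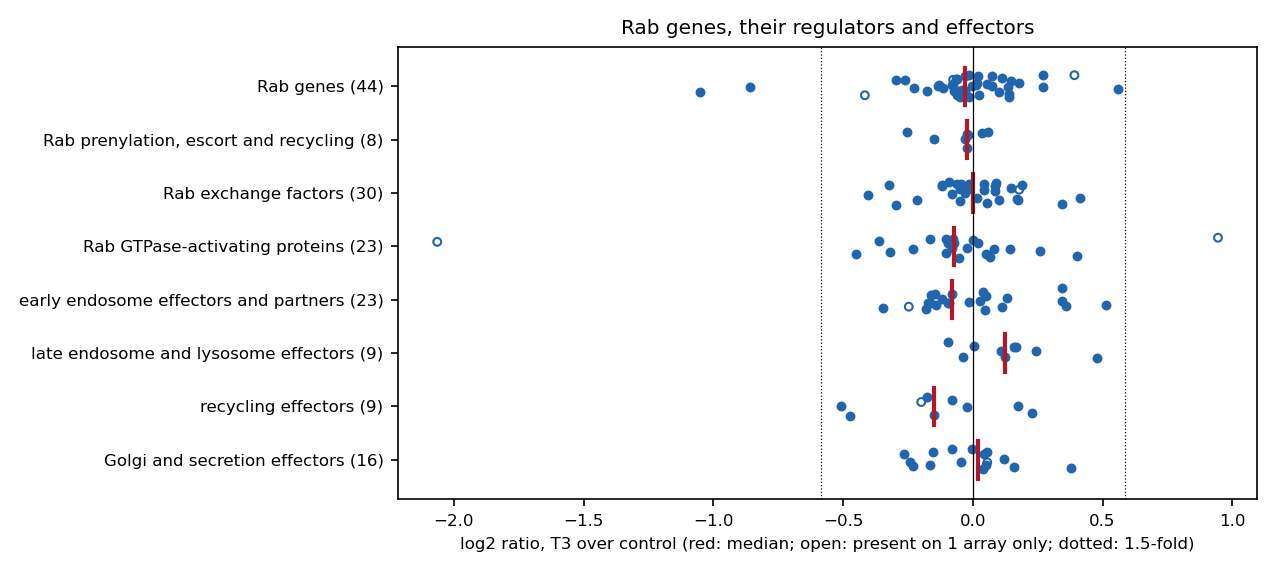
Log2 ratio of T3 over control (horizontal axis) for the 44 detected Rab genes and for the detected genes of 7 lists of Rab regulators and effectors; each point is a gene, open points were present on 1 array only, red bars are medians and dotted lines 1.5-fold. The medians of all rows lie between -0.15 and 0.13, and Rab5c and Rab27b stand apart on the lower side of the Rab row.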

How the data were processed

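The authors deposited 1 signal intensity per probe set and array, called a MAS5 signal after normalization per the file headers. Affymetrix Expression Console was used, per the submitters' processing notes, in a version and with a scaling target not given in the sources used here. The trimmed mean leaves out 2% of probe sets at each end. The authors also deposited detection calls with a detection p-value per probe set (present calls reached 0.0461, absent calls began at 0.0676), and a ratio of T3 over control, which equalled the quotient of the signals.

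The table holds 31095 probe sets, and its 57 array controls were not used. Log2 ratios were computed with no pseudocount from the deposited signals, and each gene took its detected probe set of highest arithmetic mean signal. A gene was called past a fold when present on the brighter array. Where the dimmer array lacked a present call, the size of the fold is uncertain. Counts over all genes use 1-symbol probe sets. Genes carry the file's symbols, of which 5 Rab symbols have another current form in RefSeq's GRCr8 table. 1 further Rab20 probe set, listed under a locus name and not detected, and the genes now named Rab29 and Rab7b, listed under other symbols, fell outside the symbol rule.

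Signals of both arrays are given for paralogues, for genes whose signals were at least 25% apart and for the 6 brightest, and among regulators for those past 1.5-fold and the 3 highest and 3 lowest. Members and lists were chosen with earlier results of these data known. Alternatives changed the pseudocount, the detection and signal filters, the choice of probe set, the scaling and the fold. Python 3.11.15, pandas 2.3.3, numpy 2.4.6, statsmodels 0.14.6 and matplotlib 3.10.9 were used, and the code was tested on simulated data.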

Additional observations from a re-analysis of the deposited data

How the results depend on the processing

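No paired analysis was possible because each group has 1 array. For the same reason no value has a replicate error, and ratios at low signal scatter widely, which limits what can be read for Rab27b, Rab26 and Rab40b. Under 14 alternative settings, 93 of 112 values of the main results stayed within 0.1 on the log2 scale, or within 1.5 times for counts, and 19 moved. Some of these settings could not move a Rab value. The series' own value table holds the same signals, and no Rab probe set was removed by leaving out names that end in _s_at or _x_at. The median log2 ratio of the other Rabs, 0.06, changed sign to -0.02 with a mean signal of at least 100. The direction of Rab5c and Rab27b held in each setting that gave them a value, but most settings could not have changed it. Each of these genes has 1 probe set, and neither a pseudocount nor a filter can change a sign, which leaves only the scaling. The count of Rab genes lower with T3 was 2. It was 1 with a pseudocount of 16 or of 64, with a mean signal of at least 100 and at 2-fold, and 4 with no detection filter. The count of higher Rab genes was 0. It became 4 with no detection filter and 1 with the median over the probe sets of a gene, with the most changed probe set of each gene and at a fold of 25%. The log2 ratio of Rab5c relative to Rab5a and Rab5b became -0.68 with a pseudocount of 64, -0.78 with the median over probe sets and -0.69 with the most changed probe set. The count of lower regulators and effectors, 1, became 0 with either pseudocount, with present calls on both arrays and with a mean signal of at least 100, and 3 with no detection filter. Their count of higher genes, 0, became 4 with no detection filter and 2 with the most changed probe set. The log2 ratio of Rab5c ran between -0.86 and -0.62, that of Rab27b between -1.13 and -0.24 and that of Rab26 between 0.21 and 0.57. Of 515 values of single Rab genes under the alternatives, 34 moved by over 0.1 and 17, of 9 genes near equal or with probe sets on both sides of it, changed sign. The causes were not tested, beyond what each setting does by construction.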
